A study of Capsella grandiflora x Capsella rubella and Capsella rubella and Capsella grandiflora with 8 samples.

Results

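The genes described here are the Capsella homologues of AGL28 (Carubv10010156m.g, paired by the study with Arabidopsis AT1G01530) and AGL40 (Carubv10007644m.g, paired with AT4G36590), 2 of the 26521 genes in the deposited table. They were chosen by their counts in the table, as well-counted genes, each listed once in the study's pairing of Capsella with Arabidopsis genes, whose level was graded over the 4 crosses. That choice used all 8 libraries of the table, so the values of AGL28 and AGL40 are given as a description and were not tested. Tests were made for genes of seed tissues in the same libraries.

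AGL28 and AGL40 encode MADS-box transcription factors, proteins that bind DNA as dimers. In Arabidopsis both belong to the Mα group of these factors, several of which are active in the female gametophyte and in the endosperm, the tissue that feeds the embryo. The endosperm first grows as nuclei without cell walls and then cellularizes, and the FIS complex, a Polycomb repressor with the subunits MEA and FIS2, is needed for this change in Arabidopsis.

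Whole seeds were harvested at 6 days after pollination (DAP) and sequenced as bulk RNA, with 300 to 500 seeds in each library and 2 biological replicates of each cross. The crosses were C. rubella pollinated by C. rubella (Cr), C. grandiflora pollinated by C. grandiflora (Cg), a C. rubella mother with a C. grandiflora father (Cr × Cg), and a C. grandiflora mother with a C. rubella father (Cg × Cr). For gene expression the study used the accessions Cr48.21 of the selfing C. rubella and Cg4a of the outcrossing C. grandiflora, and all mothers were emasculated and hand-pollinated. Each species is thus represented by a single accession, and embryo, endosperm and seed coat were not separated. The seed coat carries only the mother's genome, while the endosperm carries more maternal than paternal copies. Fewer cells of a type and less RNA per cell cannot be told apart in such samples. The crosses were also at unlike stages at 6 DAP. The study reports that endosperm cellularization was complete in both parents by then and had come early in Cg × Cr. In Cr × Cg it had not taken place, and embryos were delayed.

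The libraries held between 24838286 and 34290034 counts (median 28339484), and levels are counts per 1000000 counts of the library (CPM). Reads of all crosses were aligned to the C. rubella genome, so C. grandiflora alleles were aligned to the other species' sequence. How far this lowered counts of C. grandiflora alleles was not tested. Gene lengths were not used, so levels of different genes were not compared with each other. Across the 18142 to 18865 genes over 1 CPM in a cross, between 1.75 and 2.28% differed by more than 4-fold between its 2 replicates. AGL28 and AGL40 were among these in Cg × Cr, and values that rest on this cross are therefore given for each library.

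AGL28 and AGL40 stood at low levels in Cr, at intermediate levels in Cg and at their highest levels in Cr × Cg, while in Cg × Cr they lay in the range around Cr. AGL28 had 45 and 40 counts for Cr (1.32 and 1.61 CPM), 323 and 277 counts for Cg (10.8 and 10.2 CPM), 1536 and 2050 counts for Cr × Cg (44.8 and 82.5 CPM) and 7 and 62 counts for Cg × Cr (0.237 and 2.41 CPM), replicate 1 first. AGL40 had 24 and 20 counts for Cr (0.706 and 0.804 CPM), 204 and 202 counts for Cg (6.80 and 7.43 CPM), 1570 and 1618 counts for Cr × Cg (45.8 and 65.1 CPM) and 6 and 91 counts for Cg × Cr (0.204 and 3.54 CPM). For both genes the Cr × Cg libraries lay above all others and the Cg libraries lay above all Cr and Cg × Cr libraries. The libraries of Cr lay between those of Cg × Cr, so these crosses overlapped and their order is not defined.

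**Figure D1:**
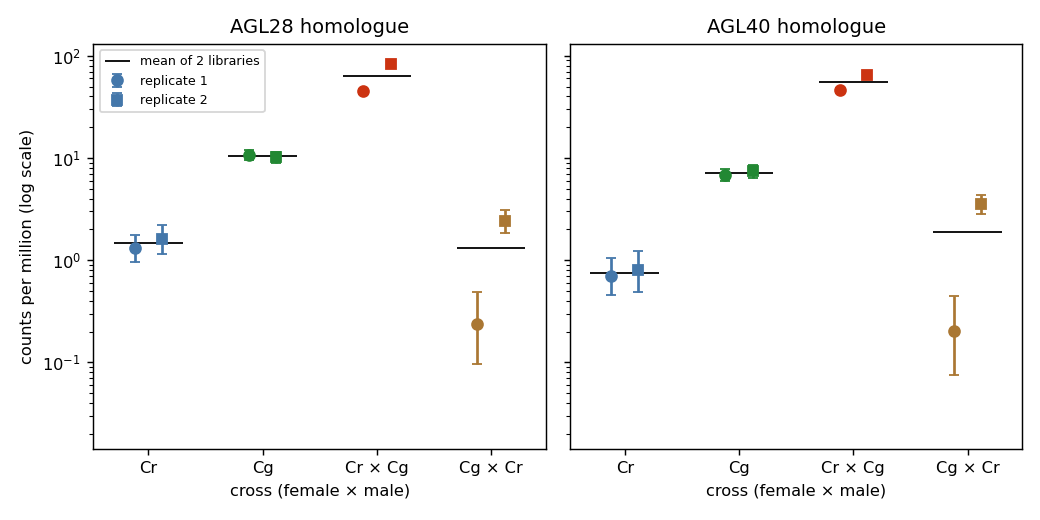
Level of the AGL28 homologue (left) and the AGL40 homologue (right) in CPM on a log axis, by cross with the female parent first. Circles are replicate 1 and squares replicate 2, vertical bars are exact 95% Poisson intervals of the count, and horizontal lines are means of the 2 libraries. AGL28 reached 44.8 and 82.5 CPM in Cr × Cg against 0.237 and 2.41 CPM in Cg × Cr.

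The parents already differed in both genes. Mean AGL28 level was 1.47 ± 0.202 CPM in Cr and 10.5 ± 0.411 CPM in Cg (SD, n = 2 each), a 7.14-fold ratio, with ratios of single libraries between 6.33 and 8.13. Mean AGL40 level was 0.755 ± 0.0696 CPM in Cr and 7.11 ± 0.443 CPM in Cg, a 9.42-fold ratio, with ratios of single libraries between 8.45 and 10.5. In each parent the replicates lay close to each other compared with this gap: the higher library exceeded the lower by 1.22-fold and 1.06-fold for AGL28 in Cr and Cg, and by 1.14-fold and 1.09-fold for AGL40.

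In Cr × Cg, mean AGL28 level was 63.7 ± 26.7 CPM, 43.4-fold the Cr mean and 6.08-fold the Cg mean. Mean AGL40 level was 55.5 ± 13.7 CPM, 73.4-fold the Cr mean and 7.80-fold the Cg mean. Ratios of single libraries ranged from 27.8 to 62.3 over Cr and from 4.16 to 8.11 over Cg for AGL28, and from 56.9 to 92.3 and from 6.17 to 9.58 for AGL40. Even the lower Cr × Cg library therefore exceeded the higher Cg library more than 4-fold. The replicates of this cross were nevertheless apart by more than counting error, with AGL28 1.84-fold (exact 95% interval 1.72 to 1.97) and AGL40 1.42-fold (1.33 to 1.53) higher in replicate 2. Such intervals cover counting error only.

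In Cg × Cr, mean level was 1.32 ± 1.54 CPM for AGL28 and 1.87 ± 2.36 CPM for AGL40. The SD exceeded the mean because replicate 2 was 10.2-fold higher than replicate 1 for AGL28 (4.64 to 26.3) and 17.4-fold higher for AGL40 (7.68 to 48.6). All Cg × Cr libraries were below all Cg libraries: single-library ratios to Cg were 0.0221 to 0.237 for AGL28 and 0.0274 to 0.520 for AGL40. The direction relative to Cr depended on the library, since these ratios ran from 0.148 to 1.82 for AGL28 and from 0.253 to 5.01 for AGL40. On the fitted log2 scale, AGL28 differed from Cr by -0.19 with both libraries, by 0.68 without replicate 1 and by -2.62 without replicate 2. For AGL40 the corresponding values were 1.27, 2.18 and -1.89. The gap to Cg kept its direction in each fit, at -3.05, -2.18 and -5.48 for AGL28 and at -1.99, -1.07 and -5.14 for AGL40.

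The reciprocal hybrids carry the same parental genomes in embryos and differ in which species was the mother. Their endosperm was also at unlike stages at harvest. AGL28 and AGL40 were far apart between these hybrids. The Cr × Cg mean was 48.1-fold the Cg × Cr mean for AGL28 and 29.7-fold for AGL40. Ratios of single libraries ranged from 18.6 to 347.5 for AGL28 and from 13.0 to 320.0 for AGL40. The width of these ranges came mostly from Cg × Cr replicate 1. Without that library the fitted log2 difference between the hybrids was 4.84 for AGL28 and 4.08 for AGL40, and without Cg × Cr replicate 2 it was 8.14 and 8.15.

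The design also allowed the father to be exchanged within each mother species. Each exchange also replaced seeds of a single species by hybrid seeds at another stage of endosperm development. The part of the father alone cannot be told apart from these. In Cr mothers, a Cg in place of a Cr father came with a fitted log2 difference of 5.51 for AGL28 and 6.26 for AGL40. In Cg mothers, from the Cg to the Cr father, AGL28 fell by 3.05 and AGL40 fell by 1.99. Both genes were thus higher with the Cg father in either mother. Without Cg × Cr replicate 2, AGL28 fell by 5.48 and AGL40 fell by 5.14 in Cg mothers, so the size of the gap to Cr mothers depended on that library. Whether the effect of the father differed between mothers was not tested for AGL28 and AGL40, because all crosses entered their choice.

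If the hybrids held the parental levels in proportion to the genome dosage of endosperm, with 2 maternal to 1 paternal copies, AGL28 would stand at 4.47 CPM in Cr × Cg and 7.47 CPM in Cg × Cr. The observed mean was 14.2 times this mixture in Cr × Cg (10.0 and 18.5 in the replicates) and 0.177 times in Cg × Cr (0.0318 and 0.323). For AGL40 the mixtures were 2.87 and 4.99 CPM, and the observed means were 19.3 times (15.9 and 22.7) and 0.374 times (0.0408 and 0.708) these values. All Cr × Cg libraries lay above the mixture and all Cg × Cr libraries below it. Any mixture lies between the parental levels, and the order of the crosses had a part in the choice of both genes. The position of Cr × Cg above the mixture is thus no separate result. With equal dosage of the parents the ratios of the means were 10.7 and 0.222 for AGL28 and 14.1 and 0.475 for AGL40. In the single Cg × Cr libraries these ratios were 0.040 and 0.404 for AGL28 and 0.052 and 0.899 for AGL40, replicate 1 first. AGL40 in Cg × Cr replicate 2 was thus close to the equal mixture.

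AGL28 and AGL40 followed each other closely over the 8 libraries. Pearson's r of log2(CPM + 0.5) between them was 0.986, a value that ranked 22nd among 21213 genes for AGL28 and 17th for AGL40. Both genes were chosen for their grading over these same libraries. A high r between them was thus built into the choice, and r and the ranks are a description only. Counts of AGL28 per count of AGL40, which depend on the unknown lengths of both genes, were 1.88 and 2.00 for Cr, 1.58 and 1.37 for Cg, 0.978 and 1.27 for Cr × Cg and 1.17 and 0.681 for Cg × Cr. The ratio was highest in the Cr libraries, but their exact 95% intervals (1.12 to 3.22 and 1.14 to 3.61) covered the values of both Cg libraries and of Cr × Cg replicate 2. The intervals of Cg (1.32 to 1.90 and 1.14 to 1.65) overlapped those of Cr, so the order of these crosses is not resolved beyond counting error. The exact 95% interval in Cr × Cg replicate 1 (0.911 to 1.05) did not reach that of replicate 2 (1.19 to 1.35), so replicates of a cross also differed in this ratio by more than counting error.

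**Figure D2:**
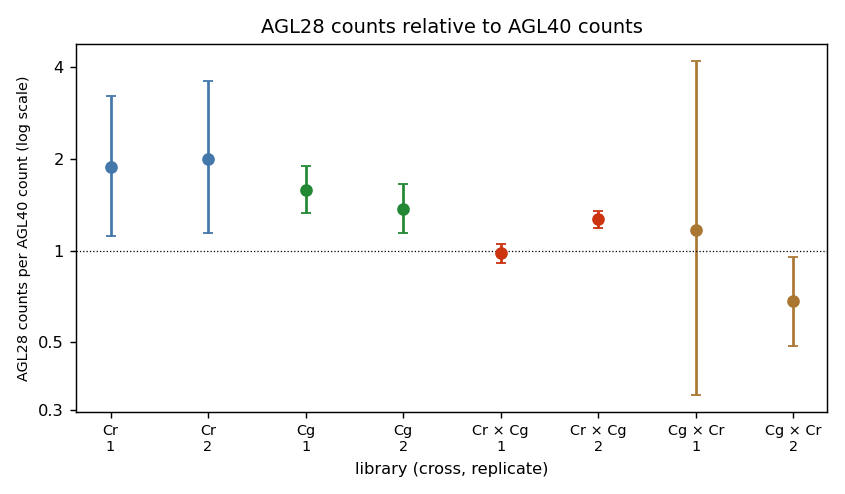
Counts of AGL28 per count of AGL40 in each of the 8 libraries on a log axis, with exact 95% intervals and a dotted line at 1. The Cr libraries lie at 1.88 and 2.00 with intervals that overlap those of Cg, and the wide interval of Cg × Cr replicate 1 (0.336 to 4.20) comes from its 7 and 6 counts.

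The genes most like AGL28 and AGL40 over the 8 libraries were taken by the highest Pearson's r of log2(CPM + 0.5). For AGL28 these were Carubv10004968m.g (AT4G15053, r = 0.996), Carubv10001647m.g (0.995), Carubv10015886m.g (0.993), Carubv10003286m.g (AT5G19700, 0.993) and Carubv10015154m.g (AT2G18870, 0.993). For AGL40 these were Carubv10014761m.g (AGL91, AT3G66656, r = 0.995), Carubv10018538m.g (AT2G02147, 0.994), Carubv10027278m.g (AT5G63070, 0.994), Carubv10027876m.g (AT1G56400, 0.994) and again Carubv10015154m.g (0.993). A high r did not always mean a like amplitude. Carubv10001647m.g, which had 1018 and 713 counts in Cr and 1726 and 1331 in Cr × Cg, followed the order of AGL28 over a much narrower range. Carubv10015886m.g was close to the limit of counting, with 3 and 4 counts in Cr and 23 and 18 in Cr × Cg.

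By the root mean square difference of profiles centred on each gene's mean, Carubv10003286m.g was nearest to AGL28 (0.26 on the log2 scale). It had 25 and 45 counts for Cr, 209 and 221 for Cg, 1371 and 1799 for Cr × Cg and 5 and 71 for Cg × Cr. Carubv10027876m.g was nearest to AGL40 (0.26), with 12 and 11 counts for Cr, 153 and 111 for Cg, 796 and 1326 for Cr × Cg and 3 and 45 for Cg × Cr. Both neighbours shared the 3 steps of AGL28 and AGL40 as well as the gap between the Cg × Cr libraries. Carubv10014761m.g (AGL91), which had the highest r with AGL40, had 8 and 10 counts for Cr, 81 and 93 for Cg, 693 and 733 for Cr × Cg and 4 and 39 for Cg × Cr. An r over 0.95 was reached by 303 of the 21213 genes (1.43%) with AGL28 and by 235 (1.11%) with AGL40. These genes share the same 8 libraries, so the values of r are not independent of each other.

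**Figure D3:**
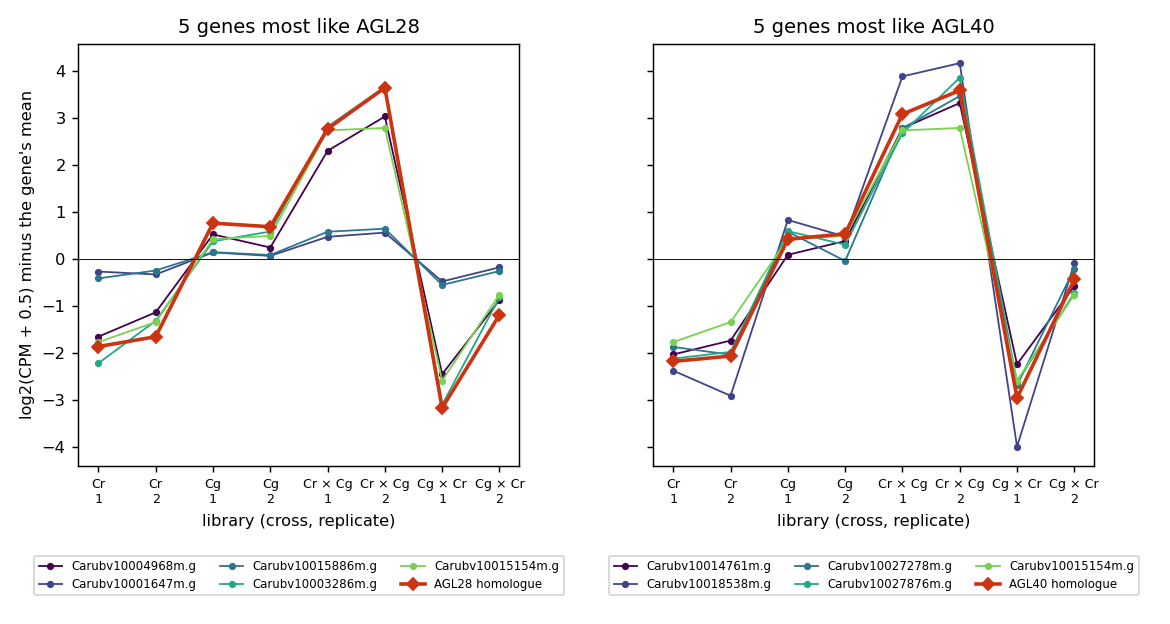
Profiles of the 5 genes with the highest Pearson's r to the AGL28 homologue (left) and the AGL40 homologue (right), as log2(CPM + 0.5) minus the mean of each gene over the 8 libraries. Lines join libraries of different crosses for legibility only. Carubv10003286m.g and Carubv10027876m.g run nearly on the profiles of AGL28 and AGL40 (root mean square difference 0.26 each), whereas Carubv10001647m.g is flatter.

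The order seen in AGL28 and AGL40 (both Cr × Cg libraries above both Cg libraries, and these above all Cr and Cg × Cr libraries) occurred in 862 of 21214 tested genes (4.06%). This share describes how common the order was and was not used as a test, since the order had a part in the choice of AGL28 and AGL40.

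Between the Cg × Cr libraries, the whole set of tested genes had a median log2 ratio of replicate 2 to replicate 1 of 0.03. For comparison, 121 genes had a Cr × Cg mean over 10 CPM and over 8-fold above every parental library, a limit that AGL28 and AGL40 did not reach. Their median log2 ratio was 2.18, and 116 of them (95.87%) were higher in replicate 2, against 52.55% of all tested genes. The direction of the gap of AGL28 and AGL40 was therefore shared by most of these 121 genes. Genes raised less in Cr × Cg were not examined in this way. Expressed as a percentage of the Cr × Cg level, the gap between the Cg × Cr libraries was 3.41% for AGL28 and 6.01% for AGL40. The median over the 121 genes was 3.25%. What set these libraries apart was not tested.

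Genes of seed tissues were tested by edgeR (quasi-likelihood, 1 fit of all 8 libraries) and called at a Benjamini-Hochberg adjusted p under 0.05 over 21214 genes. Of all tested genes, 22.7% were called in Cr × Cg against Cr (12.4% higher and 10.3% lower) and 14.9% in Cr × Cg against Cg (7.28% higher and 7.59% lower). In Cg × Cr, 6.47% were called against Cr (4.56% higher and 1.91% lower) and 2.55% against Cg (1.24% higher and 1.32% lower). Between the parents 13.0% were called (7.66% higher in Cg and 5.38% lower), and between the hybrids 24.6% (11.6% higher in Cr × Cg and 13.0% lower). The fitted log2 differences of AGL28 were 5.51 (Cr × Cg against Cr), 2.65 (against Cg), 2.86 (Cg against Cr) and 5.70 (between the hybrids), and those of AGL40 were 6.26, 3.01, 3.25 and 5.00. As the libraries are biological replicates of which no label names the plants, p-values measure the spread between these seed samples. Calls were repeated with each library left out, where the cross left with 1 library is assumed to vary like the others.

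Genes of the FIS complex and of seed tissues were paired with Capsella genes through the study's own table of deregulated genes. That table holds genes the study found deregulated in the hybrid seeds of these same libraries, or in Arabidopsis seeds with an excess of maternal or paternal genomes. Those that could be found were thus already selected for responding in seeds, in part in these data, and are no independent set. Of 6 listed genes of the complex and its relatives, 2 could be paired. The roles given for them are known from Arabidopsis. MEA, the histone methyltransferase subunit of the FIS complex, had 9 and 10 counts for Cr, 24 and 27 for Cg, 274 and 198 for Cr × Cg and 0 and 8 for Cg × Cr. It was higher in Cr × Cg than in Cr by 4.65 on the log2 scale (SE 0.91, adjusted p = 0.0096 by edgeR) and than in Cg by 3.19 (adjusted p = 0.038). The first call was lost without either Cr library and the second without any library of Cr, Cg or Cr × Cg (adjusted p up to 0.18). MEA was thus highest in Cr × Cg and was not counted in Cg × Cr replicate 1, the library in which AGL28 and AGL40 were lowest. FIS2, the zinc finger subunit, had 232 and 271 counts for Cr, 235 and 194 for Cg, 45 and 76 for Cr × Cg and 36 and 97 for Cg × Cr, with no call against either parent (adjusted p by edgeR between 0.053 and 0.19).

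Of 9 listed endosperm genes, 7 were paired and 6 tested. In Cr × Cg against Cr, MINI3 and YUC10 were higher, and ZOU, ICE1, ALE1 and KRS were lower. Against Cg, MINI3 and YUC10 were higher and ZOU and ICE1 lower. MINI3, a WRKY factor that promotes seed growth, had 31 and 53 counts for Cr, 180 and 181 for Cg, 1402 and 1135 for Cr × Cg and 8 and 27 for Cg × Cr. It was higher in Cr × Cg than in Cr by 4.92 on the log2 scale (SE 0.59, adjusted p = 0.0016 by edgeR) and than in Cg by 2.82 (adjusted p = 0.012). The difference from Cg was lost without either Cg library or without Cr × Cg replicate 2 (adjusted p up to 0.089). MINI3 formed the same steps as AGL28 and AGL40, including the higher second library of Cg × Cr.

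YUC10, an enzyme of auxin synthesis in the endosperm, had 802 and 971 counts for Cr, 1000 and 493 for Cg, 2662 and 4398 for Cr × Cg and 327 and 518 for Cg × Cr. It was higher in Cr × Cg than in Cr by 2.10 on the log2 scale and than in Cg by 2.36 (adjusted p = 0.026 and 0.025 by edgeR). Both calls were lost without either library of the respective parent or without Cr × Cg replicate 2 (adjusted p up to 0.13). Its parental libraries overlapped, unlike those of AGL28 and AGL40.

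The genes that were lower in Cr × Cg ran opposite to AGL28 and AGL40 in that cross. KRS, a secreted peptide gene, had 6055 and 4618 counts for Cr, 2016 and 364 for Cg, 78 and 129 for Cr × Cg and 1732 and 4660 for Cg × Cr. It fell by 5.55 on the log2 scale from Cr to Cr × Cg (adjusted p = 0.012 by edgeR), and the call was lost without Cr replicate 2 or either Cr × Cg library (adjusted p up to 0.079). ALE1, a subtilisin-like protease gene, fell by 3.31 on the same scale from Cr to Cr × Cg (adjusted p = 0.011 by edgeR), a call lost without Cr replicate 2 or Cr × Cg replicate 1 (adjusted p up to 0.068). ZOU, a bHLH factor of the endosperm, fell by 3.05 from Cr to Cr × Cg (adjusted p = 0.0029 by edgeR), a call that held with each library left out. Its call against Cg (adjusted p = 0.0093 by edgeR) was lost without Cg replicate 1 or either Cr × Cg library (adjusted p up to 0.063). ICE1, a bHLH partner of ZOU in the endosperm, fell by 2.92 from Cr and fell by 2.09 from Cg (adjusted p = 0.0015 and 0.0063 by edgeR), and both calls held with each library left out. Between the hybrids all 6 genes were called (adjusted p by edgeR between 0.0013 and 0.018), against 24.6% of all tested genes. The pairing favoured genes that respond in these libraries, so nothing is concluded from the gap between these shares. MINI3 and YUC10 were higher in Cr × Cg and the other 4 lower. The calls of ZOU, ALE1 and KRS were lost without either Cr × Cg library, and that of ALE1 also without Cg × Cr replicate 2. In Cg × Cr against the parents, 1 of the 6 genes was called, MINI3, which was lower than in Cg (adjusted p = 0.03 by edgeR). That call was lost without either Cg or Cr × Cg library or without Cg × Cr replicate 1 (adjusted p up to 0.11).

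**Figure D4:**
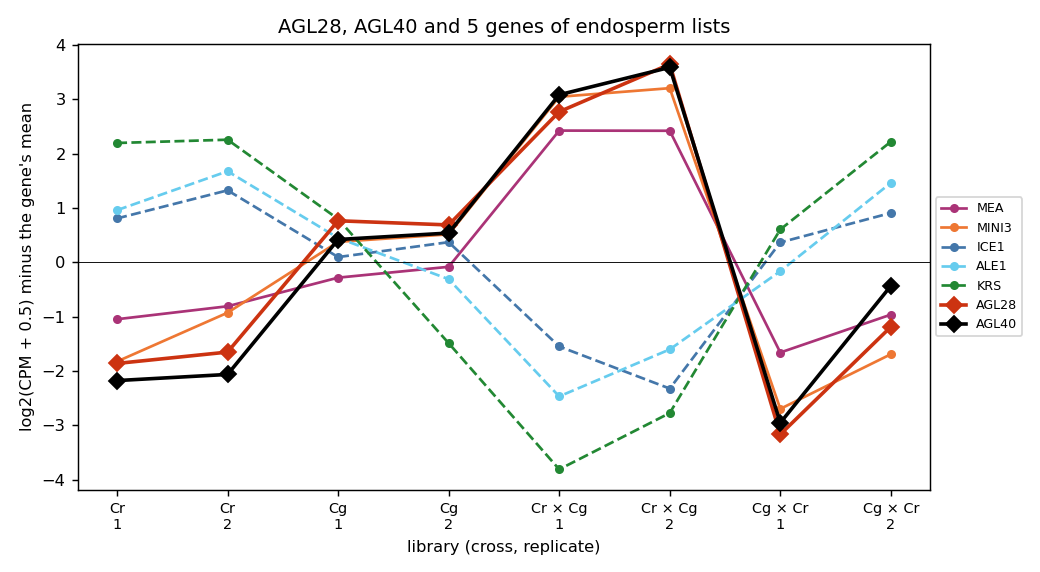
Profiles of AGL28, AGL40 and 5 genes of the FIS complex and endosperm lists over the 8 libraries, as log2(CPM + 0.5) minus the mean of each gene. Solid lines with MEA and MINI3 peak in Cr × Cg as AGL28 and AGL40 do, and dashed lines with ICE1, ALE1 and KRS are lowest there. Lines join libraries of different crosses for legibility only.

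Genes of embryo and seed coat varied between libraries as well. Summed over the 6 of 9 listed embryo genes that could be paired, of which none was at 0 in any library, the level ranged from 702.8 to 7463 CPM in Cr, 285.3 to 497.4 in Cg, 80.8 to 712.4 in Cr × Cg and 1233 to 2690 in Cg × Cr. CRC, a seed storage protein gene, had 130806 and 1056 counts in the Cr libraries, a gap that neither AGL28 nor AGL40 had in this cross. The storage protein genes CRA1 and CRC and the oleosin gene OLEO1 were called in no comparison. LEC1, a regulator of embryo identity, fell by 3.03 on the log2 scale from Cr to Cr × Cg (adjusted p = 0.0079 by edgeR), and fell by 2.80 from Cg (adjusted p = 0.015), the latter lost without Cg replicate 1 (adjusted p = 0.067). LEC2, a further embryo regulator, fell by 1.53 from Cg to Cr × Cg (adjusted p = 0.017 by edgeR) and fell by 1.71 from Cg to Cg × Cr (adjusted p = 0.037). The first call was lost without any library of Cg or Cr × Cg, and the second without either Cg library or Cg × Cr replicate 1 (adjusted p up to 0.17).

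The paired 2 of 9 listed seed coat genes, TT12 (a flavonoid transporter) and STK (an ovule identity MADS-box factor), summed to 61.1 to 76.0 CPM for Cr, 124.9 to 208.8 for Cg, 264.9 to 274.5 for Cr × Cg and 128.6 to 159.7 for Cg × Cr, with neither at 0 in any library. The seed coat sum was thus highest in Cr × Cg, as were AGL28 and AGL40. Both genes were called higher in Cr × Cg than in Cr, TT12 by 2.82 and STK by 1.27 on the log2 scale (adjusted p = 0.0011 and 0.024 by edgeR), and the call of STK was lost without either Cr library or Cr × Cg replicate 1 (adjusted p up to 0.15). Neither was called in Cr × Cg against Cg (adjusted p = 0.095 and 0.2 by edgeR). TT12 was also called higher than in Cr in Cg (adjusted p = 0.0038 by edgeR), with each library left out too, and in Cg × Cr (adjusted p = 0.016), the latter lost without either Cr library or Cg × Cr replicate 2 (adjusted p up to 0.13). The summed level of the 7 endosperm genes was lowest in Cr × Cg (204.2 and 290.4 CPM), where AGL28 and AGL40 were highest. It was 697.2 and 951.5 CPM in Cr, 426.3 and 372.0 in Cg and 388.9 and 755.9 in Cg × Cr. This sum pools genes of opposite direction. ICE1, KRS, ALE1 and ZOU were lowest in Cr × Cg (ICE1 mean 54.4 CPM, against 431.0 in Cr), whereas MINI3, YUC10 and ADM were highest there (YUC10 mean 127.3 CPM, against 31.3 in Cr). ADM was the 1 of the 7 genes at 0 outside Cr × Cg. Its 8 and 16 counts in Cr × Cg lay near the floor and were too few for it to be tested. Within Cg × Cr, replicate 2 had the higher sum of endosperm genes and the lower sum of embryo genes. The lower embryo sum came from CRC (40590 and 6288 counts, replicate 1 first), OLEO1 (21698 and 17028), CRA1 (9252 and 2063) and FUS3 (5243 and 2804). Between the Cg × Cr libraries the embryo regulators thus did not move together. FUS3 was lower in replicate 2, whereas LEC1 (1787 and 2539 counts) and LEC2 (707 and 1016) were higher. Between the hybrids, FUS3 and LEC1 were both called lower in Cr × Cg (adjusted p = 0.031 and 0.025 by edgeR), and LEC2 was not called. Both calls were lost in some fits with a library left out. The part that tissue proportions had in the levels of AGL28 and AGL40 was not tested.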

How the data were processed

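Expression was measured by RNA-sequencing of whole seeds at 6 DAP in 4 crosses with 2 libraries each. The deposited values are counts per gene without normalization. The authors aligned reads to the C. rubella genome v1.0 with Stampy, removed reads placed at multiple locations with Samtools (-q 4) and counted reads per gene with htseq-count at its defaults. Trimmomatic is named in the submitters' processing notes. Aligning to the genome of C. rubella alone and dropping shared reads can lower counts of C. grandiflora alleles and of near-identical copies.

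Library columns were matched to crosses and replicates by name. Genes were kept by filterByExpr (count minimum of 10), scaled by TMM and fitted for all crosses together with edgeR 4.0.16 (R 4.3.3, limma 3.58.1, robust quasi-likelihood, 4 residual degrees of freedom). P-values were adjusted over 21214 genes and called under 0.05. The SE is the absolute log2 fold change divided by the square root of the F statistic. CPM used library totals, and count intervals are exact at 95%. Likeness was Pearson's r of log2(CPM + 0.5). The fit was tested on simulated counts.

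Other genes named were the 5 most like each of AGL28 and AGL40 and, per tissue list, the 3 highest in mean CPM and those that differed from their list. Further genes behind small counts or sums were named after their values were seen. AGL28, AGL40, the lists and the tests were chosen with earlier results of these data known. Gene names rest on the study's pairings with Arabidopsis, without coordinates, sequences or lengths. Some results are not reported here.

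Alternatives were DESeq2 1.42.0, edgeR with size factors from DESeq2, all genes with no filter, only genes at 1 CPM or more in 2 libraries, a block for the replicate number, a fit of the crosses compared alone, each library left out, a pseudocount of 5, the root mean square difference and equal parental dosage. Descriptions and figures were made in Python 3.11.15 (SciPy 1.17.1, NumPy 2.4.6, pandas 2.3.3, matplotlib 3.10.9).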

Additional observations from a re-analysis of the deposited data

How the results depend on the processing

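The log2 fold changes of AGL28 and AGL40 kept their sign and moved by at most 0.34 in all 72 values from settings that kept every library. With 1 library left out, AGL28 against Cr in Cg × Cr ranged from -2.62 to 0.68 and AGL40 from -1.89 to 2.18, AGL28 against Cg from -5.48 to -2.18 and AGL40 from -5.14 to -1.07, and the difference of the hybrids from 4.08 to 8.15 for AGL40, with Cg × Cr replicate 2 left out at the extreme each time. AGL40 in Cr × Cg stood at 14.1 times the parental mixture with equal dosage. Of the 5 genes nearest to AGL28, 2 were shared with a pseudocount of 5 and 1 with the root mean square difference, and for AGL40 3 and 3.

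Same-numbered libraries deviated together in the 3 pairs of crosses without Cg (r of deviations 0.22 to 0.33) but not in the 3 with Cg (-0.18 to 0.06). No label names a shared batch, but the study itself calculated paired fold changes by replicate. The mapping efficiency it reports was lower in replicate 2 than in replicate 1 of Cr, Cg and Cr × Cg. In Cg × Cr it was lower in replicate 1, which had the lowest efficiency of all libraries. Whether the numbers mark a batch is thus not settled. They were not used to pair the samples in the main fit, unlike in the study. With the replicate number as a block, the fitted log2 fold change in Cr × Cg against Cr was 5.42 for AGL28 and 6.23 for AGL40. Settings other than leaving out a library were applied to the tissue genes after the data had been seen. Of their 32 calls over 6 comparisons, the replicate block lost 0 and added 8, among them FIS2 against both parents (adjusted p = 0.027 and 0.047 by edgeR) and LEC2 against Cr (0.027) in Cr × Cg. Of the same 32 calls, 1 was lost with no filter and 3 with only the crosses compared, where MINI3 in Cg × Cr against Cg had an adjusted p of 0.066. The causes of these shifts were not tested, beyond the smaller number of libraries in a fit. Of 176 alternative values, 166 stayed within the replicate spread or within 1.5 times the count, and 10 moved. The moved values were fold changes of Cg × Cr without its replicate 2, the numbers of shared nearest genes, and AGL40 in Cr × Cg at equal dosage. The bound is loose, as it rests on the SD of 2 libraries (2.36 for AGL28 and 2.91 for AGL40 in Cg × Cr, log2 scale). Leaving out a library of an uninvolved cross could hardly pass it. The number 166 is thus no measure of robustness. With 7 and 6 counts in Cg × Cr replicate 1, depth limits what that library shows of AGL28 and AGL40.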
